A study of Mus musculus with 9 samples.

Results

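The miR-1843 family of the mouse comprises 2 hairpins, miR-1843a and miR-1843b, and its mature arms were counted in the livers of 9 mice. All rows of the deposited table whose name starts with mmu-miR-1843a- or mmu-miR-1843b- were taken, which gave 4 of 1140 rows, namely the 5p and the 3p arm of each hairpin. The family was chosen by measured values, since mmu-miR-1843a-5p was already known to be lower in the TAA group than in the control group and higher again in the recovery group. The choice rests on the values of all 3 groups, so the levels and every comparison between groups are given as a description, with no test. Each group held 3 male C57BL/6 mice, which were obtained at 8 weeks of age. Control mice received normal saline (NS) intraperitoneally for 8 weeks. TAA mice received thioacetamide (TAA), a compound that is converted to a toxic product in hepatocytes and causes liver fibrosis, by the same route for 8 weeks. Control and TAA mice were killed a few days after the last injection, so fibrosis cannot be told apart from recent exposure to TAA. Recovery mice received the same 8-week course of TAA and were then left without injections for a further 8 weeks, so they were older at sampling and recovery cannot be told apart from age. Whole liver was sequenced, and all groups share one strain and sex.

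A miRNA is cut from the stem of a hairpin transcript, and either strand of the stem (the 5p or the 3p arm) can be loaded into an Argonaute protein. The loaded strand pairs with target mRNAs mainly through its seed, bases 2 to 8, and lowers their translation or stability. Most miRNA hairpins are released from longer transcripts by Drosha, but some are cut out of other structured RNAs. Small Cajal body RNAs (scaRNAs) are one such source. They are guide RNAs that are spliced out of introns and direct the modification of spliceosomal RNAs.

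Both miR-1843 hairpins lie inside a scaRNA that lies inside an intron of a gene of the ubiquitin system. The miR-1843a hairpin is encoded at chr12:80391613-80391677 (GRCm38, minus strand), and all of its 65 bases fall in the exon of Scarna3b. It lies in intron 5 of the 8 introns of Dcaf5, which encodes a substrate receptor of CUL4 ubiquitin ligases, and also overlaps the sense-intronic transcript CT030161.1. The miR-1843b hairpin is encoded at chr1:159340358-159340423 (plus strand), and 65 of its 66 bases fall in the exon of Scarna3a. It lies in intron 18 of the 19 introns of Cop1, an E3 ubiquitin ligase. No other miRNA hairpin was annotated within 100 kb of either. Reads from a scaRNA fragment of the same sequence cannot be told apart from miRNA reads in a table of counts.

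The 4 mature sequences are shown because the seeds and the sharing of reads between rows both follow from them. They were taken from RefSeq (GRCm38.p6) and are written 5′ to 3′ with the seed in capitals.
mmu-miR-1843a-5p: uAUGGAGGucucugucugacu
mmu-miR-1843b-5p: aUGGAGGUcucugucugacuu
mmu-miR-1843a-3p: uCUGAUCGuucaccuccauaca
mmu-miR-1843b-3p: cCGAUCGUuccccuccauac

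The 5p arms were the same sequence shifted by 1 base. They shared a run of 20 bases, with 1 extra base at the 5′ end of the miR-1843a arm and 1 at the 3′ end of the miR-1843b arm, so that 6 seed bases lined up and the seeds differed. The 3p arms aligned over 20 bases with 18 matches. The differences, with positions counted from 1 at the 5′ end of mmu-miR-1843a-3p and the miR-1843a base first, were U3C and A12C. None of the 4 seeds was shared with any other of the 1679 mature names in the RefSeq table. That table holds sequences for 935 of the 1106 known rows of the count table, and the seeds of the other rows were not checked.

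The hairpins are shown because they set which rows can hold reads of the other locus. The mature arms are in capitals.
Mir1843a: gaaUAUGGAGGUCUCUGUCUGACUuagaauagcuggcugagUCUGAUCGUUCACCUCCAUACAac
Mir1843b: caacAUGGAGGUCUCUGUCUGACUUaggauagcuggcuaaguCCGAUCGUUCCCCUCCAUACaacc

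Of 65 aligned positions, 59 (90.8%) were identical between the hairpins, with 1 gap. The mature sequence of mmu-miR-1843b-5p occurs in full in both hairpins, whereas those of mmu-miR-1843a-5p, mmu-miR-1843a-3p and mmu-miR-1843b-3p each occur in their own hairpin only. Reads counted as mmu-miR-1843b-5p could thus have come from either locus, and how the authors treated reads with several matches is not given in the sources used here. The values of both 5p rows are uncertain to this extent, and the 3p rows are the ones that separate the loci by sequence. The forward PCR primer listed for mmu-miR-1843a-5p equals the mature sequence (21 bases), of which a run of 20 bases is also present in the miR-1843b hairpin.

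Control libraries held 9949711 to 12983378 counts in total, TAA libraries 9071847 to 11320110 and recovery libraries 12211930 to 12462838. The 4 rows together held 3633 to 7976 counts per library. The values are given on 2 scales, because these differ in what they show for this family. CPM are counts per 1000000 scaled by TMM factors, which assume that most miRNAs do not change. TPM is the deposited share of the library total. The TMM factor was 0.738 to 0.792 for control libraries, 1.433 to 1.633 for TAA libraries and 0.766 to 0.887 for recovery libraries. When library totals replaced TMM, the median log2 fold change over tested miRNAs shifted by 1.12 for TAA vs control, -0.86 for recovery vs TAA, and by 0.19 between recovery and control.

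mmu-miR-1843a-5p was the most abundant member, with 60.1% to 70.0% of the counts of the family. The order of the counts, from mmu-miR-1843a-5p over mmu-miR-1843b-5p and mmu-miR-1843b-3p to mmu-miR-1843a-3p, was the same in 9 of 9 libraries, and the CPM ranges of neighbours in this order did not overlap within any group. By mean CPM in the control group, mmu-miR-1843a-5p ranked 46 among the rows, mmu-miR-1843b-5p 75, mmu-miR-1843b-3p 150 and mmu-miR-1843a-3p 184. The mature lengths are within 2 bases of each other (20 to 22), and each count is 1 read.

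mmu-miR-1843a-5p, the main product of its hairpin, was counted 5337, 3608 and 3567 times in control livers, 2934, 2523 and 2185 times in TAA livers and 3817, 4386 and 5013 times in recovery livers. In CPM these were 519, 476 and 474.8, then 180.9, 170.3 and 146.7, then 408, 402.8 and 459.2. The TAA samples were the lowest 3 of the 9, and the recovery samples lay just under the control samples. On the TPM scale the order of TAA was the same but the gap was smaller, at 351.5 to 411.1 for control, 238.4 to 278.1 for TAA and 312.6 to 402.2 for recovery, and control and recovery overlapped.

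mmu-miR-1843a-3p, the less abundant arm of the same hairpin, was counted 187, 99 and 104 times in control livers, 49, 74 and 49 times in TAA livers and 179, 112 and 152 times in recovery livers. Its CPM were 18.2, 13.1 and 13.8, then 3.02, 4.99 and 3.29, then 19.1, 10.3 and 13.9. The TAA samples did not overlap the other groups on either scale, with TPM of 4.33 to 8.16 against 9.65 to 14.4 in the control group and 9.13 to 14.7 in the recovery group. Control and recovery overlapped.

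mmu-miR-1843b-5p was counted 2169, 1419 and 1258 times in control livers, 1384, 1391 and 1218 times in TAA livers and 1594, 1733 and 2043 times in recovery livers. Its CPM were 210.9, 187.2 and 167.4, then 85.4, 93.9 and 81.8, then 170.4, 159.2 and 187.1, with the TAA samples below all others. On the TPM scale the 3 groups overlapped (126.4 to 167.1, 122.3 to 153.3 and 130.5 to 163.9).

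mmu-miR-1843b-3p behaved in the same manner on each scale. It was counted 283, 218 and 168 times in control livers, 145, 196 and 181 times in TAA livers and 281, 234 and 256 times in recovery livers. In CPM the groups spanned 22.4 to 28.8, 8.94 to 13.2 and 21.5 to 30.03, and the TAA samples lay below the others. In TPM they spanned 16.9 to 21.8, 12.8 to 21.6 and 19.1 to 23.01, and all groups overlapped.

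**Figure D1:**
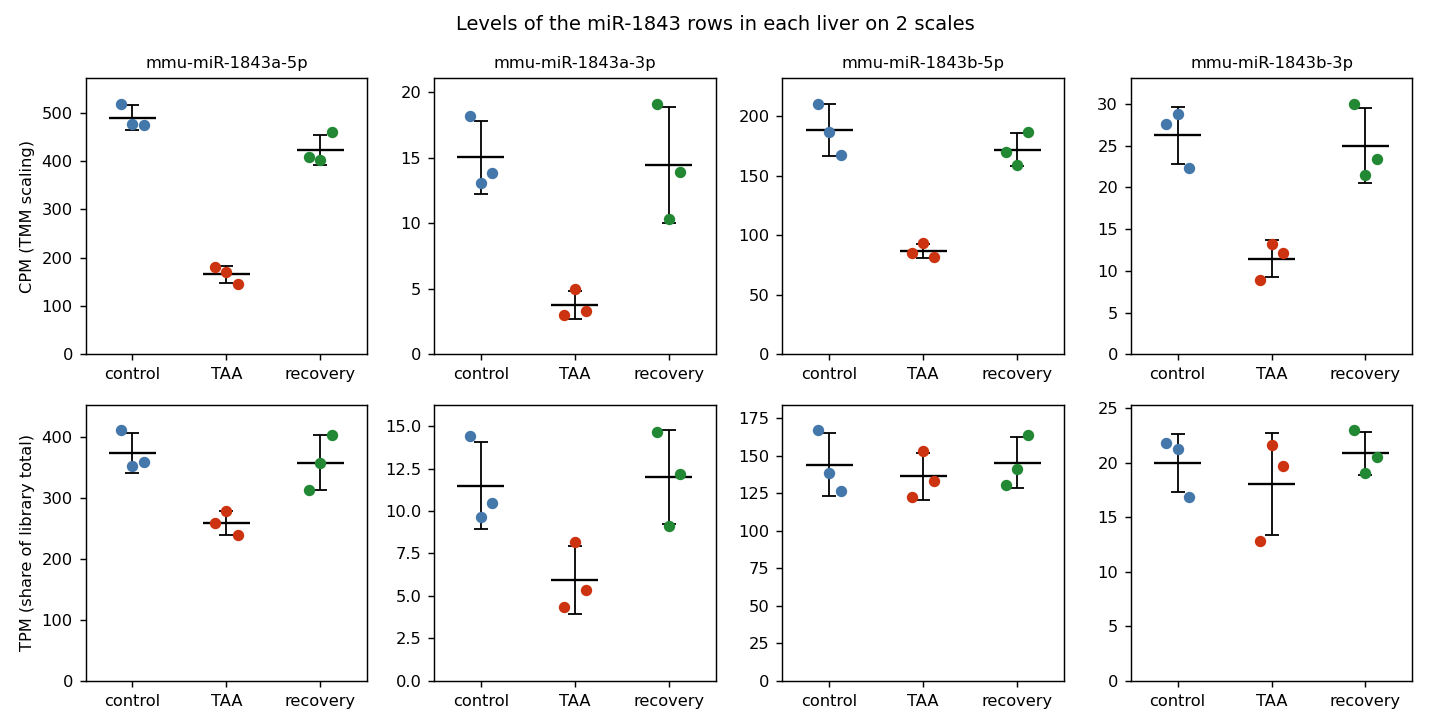
Levels of the 4 miR-1843 rows in each library, in CPM with TMM scaling (top) and in TPM, the share of the library total (bottom). Points are samples, lines the group mean and bars the SD (n = 3), and each vertical axis starts at 0. The TAA samples are the lowest for all 4 rows in CPM, whereas in TPM this holds for the miR-1843a rows and the groups overlap for the miR-1843b rows.

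In TAA vs control, the mean CPM of mmu-miR-1843a-5p was 489.9 ± 25.2 (SD, n = 3) in the control group and 166 ± 17.5 in the TAA group, a log2 fold change of -1.65 (SE 0.13). For mmu-miR-1843a-3p it was 15.03 ± 2.76 and 3.77 ± 1.07 (log2 fold change -2.08, SE 0.29), for mmu-miR-1843b-5p 188.5 ± 21.8 and 87.0 ± 6.23 (-1.20, SE 0.15), and for mmu-miR-1843b-3p 26.2 ± 3.39 and 11.4 ± 2.23 (-1.28, SE 0.23). A row was called when its FDR was below 0.05 and its fold change 2 or more, and 4 of 4 rows were called lower in the TAA group, where 16.7% of the 420 tested miRNAs were called lower, and the CPM of 4 of 4 rows did not overlap between the groups, as held for 66.7% of the tested miRNAs in either direction. With library totals the log2 fold changes were -0.53 (SE 0.13), -0.96 (SE 0.30), -0.08 (SE 0.16) and -0.15 (SE 0.24) in the same order, and 0 of 4 rows were called, where 0.952% of the tested miRNAs were called lower. On this scale the 2 miR-1843a rows did not overlap between the groups, as held for 79.5% of the tested miRNAs. Nothing is read from these counts, because this contrast chose the family. The direction of 3 of 4 rows turned relative to the summed hepatocyte marker miRNAs (given with those markers). Only mmu-miR-1843b-5p was without overlap between the groups on that scale.

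In recovery vs TAA, mean CPM in the recovery group was 423.3 ± 31.2 for mmu-miR-1843a-5p (log2 fold change 1.33, SE 0.15), 14.4 ± 4.45 for mmu-miR-1843a-3p (1.90, SE 0.33), 172.2 ± 14.1 for mmu-miR-1843b-5p (0.96, SE 0.14) and 24.99 ± 4.48 for mmu-miR-1843b-3p (1.09, SE 0.25). Called as higher in the recovery group were 3 of 4 rows, against 10.2% of 440 tested miRNAs. The remaining row, mmu-miR-1843b-5p, stayed just below a fold change of 2. Relative to the summed hepatocyte marker miRNAs the direction of 3 of 4 rows turned, with only mmu-miR-1843b-5p without overlap between the groups. The count of calls depended on single libraries. It was 2 of 4 rows without TAA replicate 1, and 4 of 4 without recovery replicate 1, recovery replicate 2 or TAA replicate 2. The CPM of 4 of 4 rows did not overlap, as in 53.4% of the tested miRNAs. With library totals the values were 0.47 (SE 0.16), 1.02 (SE 0.31), 0.09 (SE 0.16) and 0.21 (SE 0.25), with 1 of 4 rows called (mmu-miR-1843a-3p) against 0.909% of the tested miRNAs, and 2 of 4 rows without overlap against 69.8%. The TAA samples enter both comparisons, so a low TAA value moves each of them in opposite directions.

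Recovery vs control asked whether the levels of the family differed from control after withdrawal. The family was chosen for its return in the recovery group, so values near control are in part set by the choice, and nothing is read from the calls. By edgeR's quasi-likelihood fit 0 of 4 rows were called (against 11.3% of 391 tested miRNAs), and DESeq2 also called 0 of 4. The log2 fold changes were -0.25 for mmu-miR-1843a-5p (95% confidence interval -0.48 to -0.01), -0.10 for mmu-miR-1843a-3p (-0.67 to 0.47), -0.17 for mmu-miR-1843b-5p (-0.46 to 0.12) and -0.11 for mmu-miR-1843b-3p (-0.53 to 0.32). Every interval lay within a fold change of 2 in either direction on the TMM scale. The intervals exclude no difference, smaller or larger, because the choice of the family used these values. The CPM of mmu-miR-1843a-5p was the only one of the 4 that did not overlap between the groups, where 27.4% of the tested miRNAs did not. With library totals its log2 fold change was -0.06, the other rows were at 0.06, 0.01 and 0.06, and 0 of 4 rows were without overlap, against 27.9% of the tested miRNAs.

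**Figure D2:**
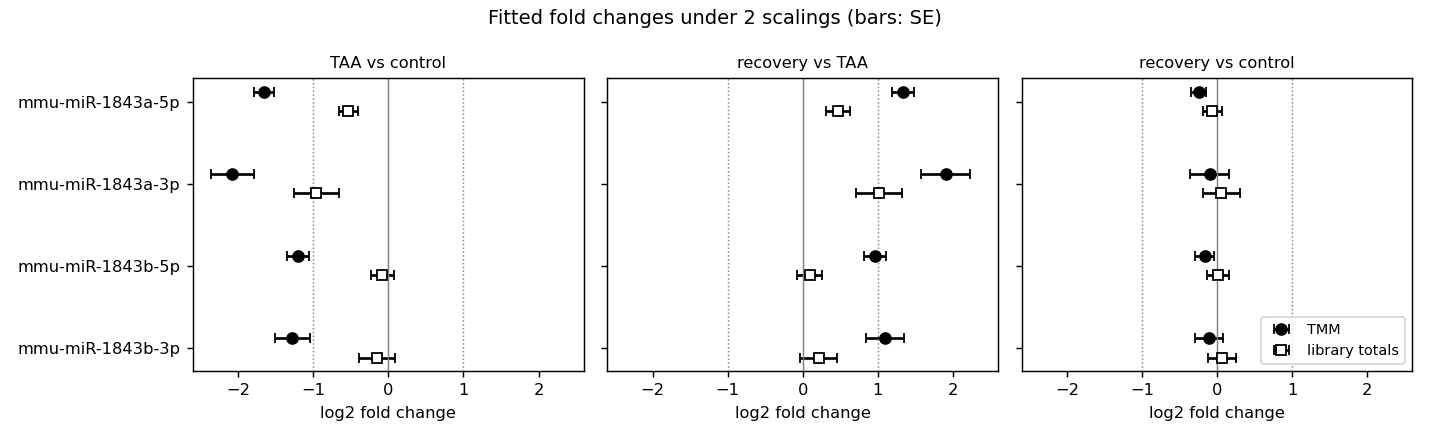
Fitted log2 fold changes of the 4 rows in the 3 comparisons, with TMM scaling (filled circles) and with library totals (open squares). Bars are standard errors, and dotted lines mark a fold change of 2. With library totals the values of the first and second comparison lie closer to 0, at -0.96 to -0.08 and 0.09 to 1.02.

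The ratio of 2 rows within a library does not depend on the scaling. For the 3p arms it compares the hairpins, whereas for the 5p arms it compares 2 rows that may share reads. Among 5p arms, mmu-miR-1843a-5p exceeded mmu-miR-1843b-5p by a factor of 2.46, 2.54 and 2.84 in control livers, 2.12, 1.81 and 1.79 in TAA livers and 2.40, 2.53 and 2.45 in recovery livers. The TAA samples were the lowest 3, and control and recovery overlapped. The mean log2 ratio was lower in the TAA group than in the control group by a difference of -0.454 (SE 0.10), and higher in the recovery group than in the TAA group by 0.369 (SE 0.08).

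Among 3p arms, which are told apart by sequence, the order of the hairpins was the opposite. The ratio of mmu-miR-1843a-3p to mmu-miR-1843b-3p was 0.661, 0.454 and 0.619 in control livers, 0.338, 0.378 and 0.271 in TAA livers and 0.637, 0.479 and 0.594 in recovery livers. The TAA samples were again the lowest 3, with log2 differences of -0.809 (SE 0.22) from control to TAA and 0.797 (SE 0.19) from TAA to recovery. Among 3p arms the share of miR-1843a reads was thus lower in TAA-fibrotic livers. The ratio of the other arms cannot show a share by hairpin, because its rows may share reads. Of 136 pairs of lettered paralogs of the same arm (34 families, at least 10 counts on average), the ratios of 47.8% did not overlap between TAA and control and those of 46.3% between recovery and TAA, against 2 of 2 miR-1843 pairs each time. Nothing is read from this, since these contrasts chose the family.

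In recovery vs control the hairpin ratios overlapped for both arms, against 9.56% of the paralog pairs without overlap. The log2 differences were -0.085 (SE 0.07) for the 5p arms and -0.012 (SE 0.21) for the 3p arms.

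Both hairpins gave more 5p than 3p reads, and miR-1843a did so more strongly. The 5p/3p ratio of miR-1843a was 28.5, 36.4 and 34.3 in control livers, 59.9, 34.1 and 44.6 in TAA livers and 21.3, 39.2 and 32.98 in recovery livers. The groups overlapped, and the log2 difference was 0.451 (SE 0.26) in TAA vs control and -0.575 (SE 0.35) in recovery vs TAA. Single libraries weighed on these values, which were 0.244 and -0.369 without TAA replicate 1, and the second was -0.324 without recovery replicate 1. The 5p/3p ratio of miR-1843b was 7.66, 6.51 and 7.49 in control livers, 9.54, 7.10 and 6.73 in TAA livers and 5.67, 7.41 and 7.98 in recovery livers, again with overlapping groups and log2 differences of 0.096 (SE 0.17) and -0.148 (SE 0.22), which were -0.06 and 0.008 without TAA replicate 1. Since mmu-miR-1843b-5p may hold reads of the miR-1843a locus, the 5p/3p ratios of both hairpins are uncertain.

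For comparison, 110 hairpin names had both arms with at least 10 counts on average. In the control group 22 of them had a higher 5p/3p ratio than miR-1843a and 35 a higher one than miR-1843b, and 56.4% had more 5p than 3p reads. The 5p/3p ratio did not overlap between groups for 21.8% of the 110 between TAA and control, 24.5% between recovery and TAA and 8.18% between recovery and control, against 0 of 2 miR-1843 hairpins in each comparison. In recovery vs control the log2 differences were -0.124 (SE 0.28) for miR-1843a and -0.052 (SE 0.17) for miR-1843b.

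**Figure D3:**
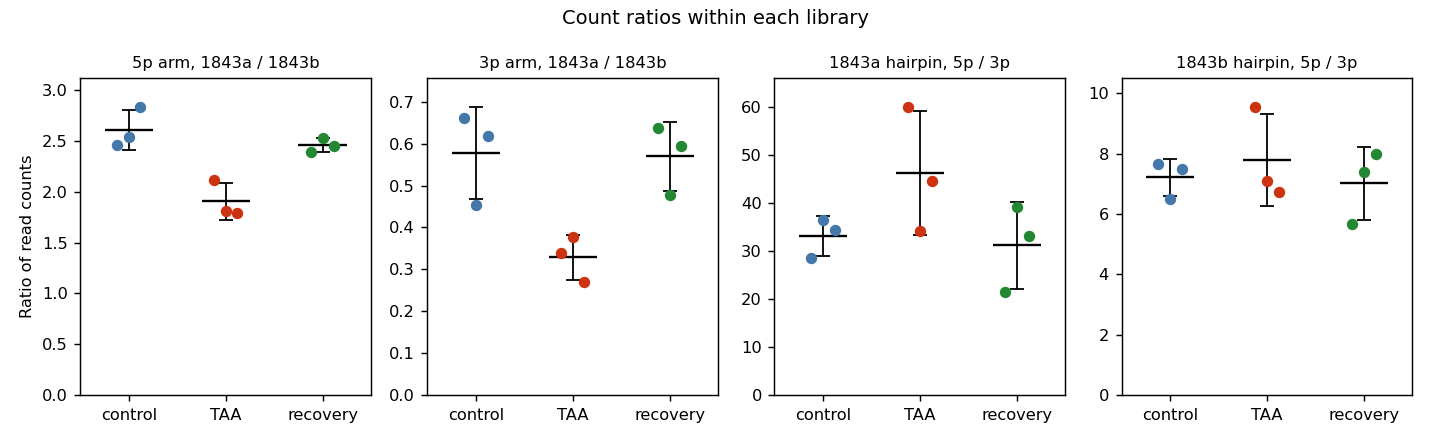
Count ratios within each library, from left to right miR-1843a to miR-1843b for the 5p arms, miR-1843a to miR-1843b for the 3p arms, and 5p to 3p for each hairpin. Points are samples, lines the group mean and bars the SD (n = 3), and each vertical axis starts at 0. The miR-1843a to miR-1843b ratio of both arms is lowest in the 3 TAA samples, whereas the 5p to 3p ratios overlap between all groups.

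The liver was checked with marker miRNAs of its cell types, and all listed markers had counts in every group. The summed CPM of 6 hepatocyte markers, among them mmu-miR-192-5p and mmu-miR-148a-3p, was 525981 to 545795 for control, 152124 to 181851 for TAA and 435884 to 517684 for recovery. Of these 6 markers, 6 were called lower in TAA vs control, against 16.7% of the tested miRNAs (median log2 fold change -1.61, against 0.11 over all tested miRNAs). In recovery vs TAA 5 of the 6 were called higher, against 10.2% (median 1.27, against -0.12). The summed CPM of 5 bile duct markers was 582 to 764, 3331 to 5534 and 1240 to 1415 in the control, TAA and recovery groups, and 5 of 5 were called higher in TAA vs control, where 25% of the tested miRNAs were called higher. For 5 stellate cell and fibroblast markers 3 were called higher in TAA vs control (summed CPM 25481 to 31110 and 18031 to 39498), against the same 25%. For 4 leukocyte markers 1 was called higher (187 to 208 and 262 to 310), which is no more than the 25% of all tested miRNAs. Of 2 endothelial markers 0 were called (8477 to 8951 and 5699 to 6894), and of 3 red cell markers 1 was called lower (789 to 1339 and 206 to 461). Of all tested miRNAs 16.7% were called lower and 25% higher in this comparison. In recovery vs TAA the median log2 fold change was -1.37 for bile duct, -1.23 for stellate cell and fibroblast and -0.86 for leukocyte markers. It was 0.59 for endothelial and 0.11 for red cell markers, against -0.12 over all tested miRNAs. In whole liver, fewer cells of a type and less of an RNA per cell cannot be told apart.

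The family was also expressed relative to the summed counts of the 6 hepatocyte markers of the same library, a scale that was added after the data had been seen. mmu-miR-1843a-5p then had 872.1 to 980.8 reads per 1000000 marker counts for control, 964.2 to 1057 for TAA and 788.1 to 1034 for recovery. The groups overlapped, and the direction of TAA vs control was turned, with a log2 difference of 0.131 (SE 0.06). mmu-miR-1843a-3p had 23.9 to 34.4, 16.6 to 31 and 23.6 to 36.96, also with overlap (-0.319, SE 0.30). The marker sum is weighted by abundance, and against the median of the markers mmu-miR-1843a-5p was not turned. Its log2 fold change on the TMM scale was -1.65 in TAA vs control, against a marker median of -1.61. In recovery vs TAA it was 1.33, against 1.27.

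Relative to the summed markers, the miR-1843b rows were higher in the TAA group. mmu-miR-1843b-5p had 318.3 to 398.6, 469.3 to 582.8 and 329.1 to 421.4 reads per 1000000 marker counts in the control, TAA and recovery groups, and the TAA samples lay above all others (log2 difference 0.585, SE 0.13, from control to TAA, and -0.512, SE 0.14, from TAA to recovery). mmu-miR-1843b-3p had 42.5 to 52.7, 49.2 to 82.1 and 49.3 to 58.02, with overlapping groups (0.49, SE 0.26). The part of the hepatocyte markers in the levels of the family was not tested.

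**Figure D4:**
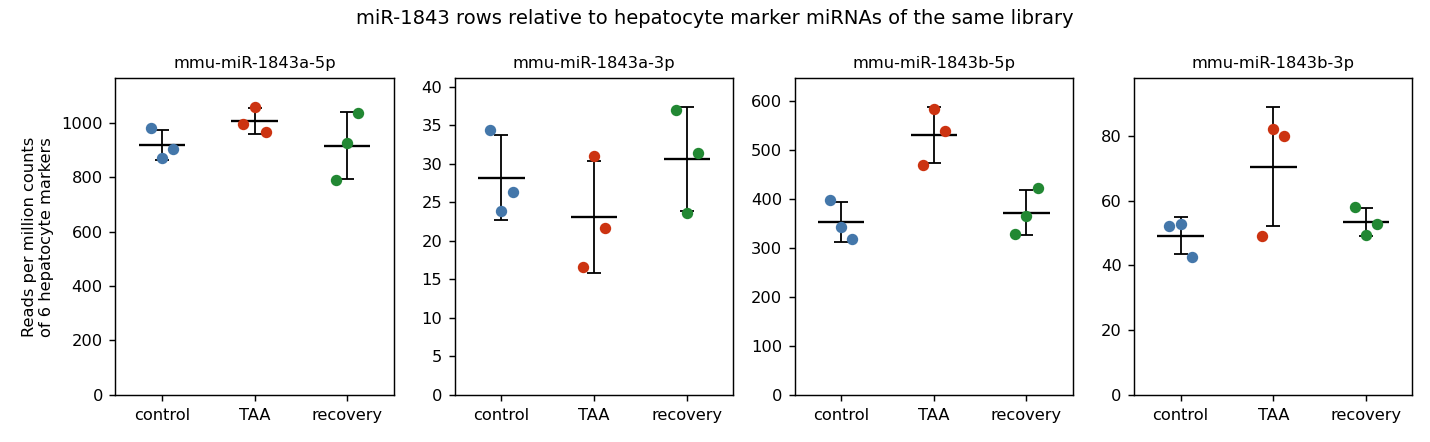
The 4 rows as reads per 1000000 counts of 6 hepatocyte marker miRNAs of the same library. Points are samples, lines the group mean and bars the SD (n = 3), and each vertical axis starts at 0. The groups overlap for both miR-1843a rows and for mmu-miR-1843b-3p, and the TAA samples are the highest for mmu-miR-1843b-5p, opposite to the TMM scale.

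The miRNAs whose pattern over the 9 samples was most like that of mmu-miR-1843a-5p were found by the root mean square difference of centred log2(CPM + 1), among 224 other known miRNAs with a mean of at least 10 CPM. The nearest was mmu-miR-192-5p, an abundant miRNA of hepatocytes, with a difference of 0.068. It was followed by mmu-miR-101b-3p (0.122), mmu-miR-203-3p (0.147), mmu-miR-30c-2-3p (0.157) and mmu-miR-148a-3p (0.174), of which 3 of the 5 are on the list of hepatocyte markers. Their log2 fold changes ranged from -1.84 to -1.41 between TAA and control, and from 1.20 to 1.47 between recovery and TAA. The other members of the family were less close, with mmu-miR-1843b-5p at 0.215 (rank 15), mmu-miR-1843b-3p at 0.295 (rank 26) and mmu-miR-1843a-3p at 0.299 (rank 28), where the 3p rows also carry the larger counting error. The libraries and their scaling are common to all rows, so this likeness is a description.

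Besides mmu-miR-1843a-5p, the study paired further miRNAs with lysyl oxidases, enzymes that cross-link collagen. These were mmu-miR-30c-2-3p, mmu-miR-193a-5p and mmu-miR-194-2-3p, and all 3 were on the same side as the family on the TMM scale. Their log2 fold changes in TAA vs control were -1.41 (SE 0.12), -1.99 (SE 0.21) and -1.81 (SE 0.17), and with library totals -0.29, -0.87 and -0.68, between the values of mmu-miR-1843a-3p and mmu-miR-1843b-3p. The study chose these miRNAs on the same samples, so their sequencing values are no independent evidence of the direction. The study also measured these miRNAs and the most abundant member of the family by quantitative PCR. It reports each of them as higher in the recovery group than in the TAA group. The PCR used more livers per group than were sequenced, so some of its livers were not among the sequenced ones. Whether the sequenced livers were also among them is not stated.

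Other miRNAs whose hairpins overlap genes of small nucleolar RNAs or scaRNAs were grouped by position after the data had been seen. For some of them the overlapped gene bears the name of the miRNA itself, and an overlap does not show origin. The group held 12 further hairpins overlapping exons that GENCODE assigns to such genes, with 16 rows in the table. In TAA vs control 12 of these rows were tested, of which 3 were called lower (against 16.7% of all tested miRNAs) and 0 higher (against 25%). The median log2 fold change was -0.67 against 0.11 over all tested miRNAs, and nothing is read from these counts. The 3 called lower were mmu-miR-664-3p in Snora36b (-1.34, SE 0.25), mmu-miR-1291 in Snora34 (-1.30, SE 0.27) and mmu-miR-6516-5p (-1.13, SE 0.31). With library totals they were at -0.23, -0.18 and -0.01, and none of the 3 was called. In recovery vs TAA 2 of 12 were called higher (against 10.2%, median 0.40 against -0.12), and in recovery vs control 0 of 11 were called (against 11.3%, median -0.14 against -0.03).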

How the data were processed

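The authors mapped filtered reads of small RNA libraries (NEBNext kit, total RNA of whole liver) with Bowtie 1.3.0 to mm10 and to mature miRNAs of miRBase, and deposited read counts per miRNA, which were not normalized. The deposited TPM equals the count per 1000000 counts of the library (largest difference 5e-05). From the counts, pairs of groups (6 samples) were compared with edgeR 4.0.16 (R 4.3.3): filterByExpr with a minimum count of 10, TMM factors, the quasi-likelihood F test and Benjamini-Hochberg adjustment (FDR) over all rows tested. Calls needed an FDR below 0.05 with a fold change of 2 or more. The SE is the log2 fold change divided by the square root of F. DESeq2 1.42.0, limma 3.58.1 on log2(TPM + 1), other scalings and filters, a replicate block and leaving out single replicates were alternatives. No replicates agreed within sampling noise. The labels name the samples as replicates of a group, and the spread is that between these samples. Recovery vs control had been planned as a test, but is given as a description, because the choice of the family used both groups. Ratios to hepatocyte markers, the comparisons over hairpins and paralogs, and the list of hairpins overlapping small nucleolar RNA or scaRNA genes were chosen after the data had been seen. Positions come from GENCODE M21 and RefSeq (both GRCm38, the build named mm10 in the submitters' notes), and 935 of 1106 known rows matched a mature RefSeq sequence. The members, marker lists and tests were chosen with earlier results of these data known. Named miRNAs are the 4 rows, miRNAs sharing a seed or lying within 100 kb, the 3 others the study linked to lysyl oxidases, and the 5 nearest in pattern. The 3 miRNAs overlapping small nucleolar RNA or scaRNA genes that are named beside these were chosen after their values were seen, because they were called. Ratios used unadjusted counts, with 0.5 added for the comparison over all hairpins and paralogs.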

Additional observations from a re-analysis of the deposited data

How the results depend on the processing

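The size of the differences changed with the scaling. With library totals, log2 fold changes in TAA vs control fell from between -2.08 and -1.20 to -0.959 (mmu-miR-1843a-3p), -0.531 (mmu-miR-1843a-5p), -0.148 (mmu-miR-1843b-3p) and -0.0802 (mmu-miR-1843b-5p), with 0 of 4 rows called, and limma on log2(TPM + 1) gave -0.867, -0.529, -0.162 and -0.0759, also with 0 called. In recovery vs TAA, library totals gave 0.467 and 0.211 for mmu-miR-1843a-5p and mmu-miR-1843b-3p, with 1 of 4 called, and limma gave 0.919, 0.461 and 0.227 for the a-3p, a-5p and b-3p rows, with 0 called. In recovery vs control 3 rows changed sign without being called, at 0.0561, 0.0623 and 0.0127 (a-3p, b-3p, b-5p) with library totals and 0.052, 0.065 and 0.0163 with limma. Relative to hepatocyte markers, an alternative added after seeing the data, the values in the order a-3p, a-5p, b-3p, b-5p were -0.319, 0.131, 0.49 and 0.585 (TAA vs control), 0.432, -0.143, -0.365 and -0.512 (recovery vs TAA), and -0.012, 0.125 and 0.073 for the last 3 in recovery vs control.

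Rows near a fold change of 2 crossed it. With a mean of at least 10 CPM, mmu-miR-1843b-5p was at -0.975 in TAA vs control and mmu-miR-1843b-3p at 0.909 in recovery vs TAA. mmu-miR-1843b-5p was called in recovery vs TAA with DESeq2 size factors (1.02) and DESeq2 (1.02). With the hairpins summed per arm there were 2 rows, the summed 5p row was at 1.21 in recovery vs TAA and was called, and 2 of 2 rows were called in TAA vs control. Leaving out each replicate gave 0.936 to 1.09 for mmu-miR-1843b-5p and 0.994 to 1.29 for mmu-miR-1843b-3p in recovery vs TAA, and -0.332 to 0.11 for mmu-miR-1843a-3p and -0.239 to 0.00783 for mmu-miR-1843b-3p in recovery vs control. The causes were not tested.

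The replicate block (numbers shared between different mice, with correlations of the deviations from -0.357 to 0.368 between equal numbers) left 4, 3 and 0 rows called in the 3 comparisons. Log2 ratio differences moved by less than the SD pooled over both groups in 96 of 96 alternatives, but small ones changed sign when a replicate was left out: the 5p/3p ratio of miR-1843a in recovery vs control (-0.312 to 0.127), and that of miR-1843b in TAA vs control (-0.06 to 0.193), recovery vs TAA (-0.248 to 0.008) and recovery vs control (-0.152 to 0.094), and the 3p hairpin ratio in recovery vs control (-0.177 to 0.108). Of the 5 nearest miRNAs, 2 of 5 were kept by Pearson correlation, and the same 5 were found with a limit of 1 CPM. They were also the same with library totals, but a library's scaling nearly cancels in the difference of 2 rows, so this shows nothing about scaling. The 3p rows, with 49 to 283 counts per library, carried the widest errors.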
